A study of Mus musculus with 12 samples.

Results

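The genes described here are the E- and A-type cyclins Ccne1, Ccne2 and Ccna2, their catalytic partner Cdk2 and the E2F transcription factors E2f1, E2f2, E2f3, E2f4, E2f7 and E2f8. They were chosen by name as the step of the cell cycle that follows the kinases CDK4 and CDK6, with earlier results of these data known. All 10 were found among the 34678 gene symbols of the deposited tables and all 10 passed the filter on low values that left 15350 genes for testing. RNA was sequenced from 12 subcutaneous tumors of C57BL/6 mice, grown from LLC1-shLkb1 cells, a Lewis lung carcinoma line in which a short hairpin RNA lowers Lkb1 (Stk11). Each of 4 arms held 3 tumors. The vehicle arm received a control immunoglobulin G. The palbociclib arm received this CDK4/6 inhibitor by mouth (100 mg/kg on the first 3 days of a 7-day cycle), and the anti-PD-1 arm received the antibody RMP1-14 intraperitoneally (200 µg per mouse on days 1, 3 and 5). The combination arm received both agents. Treatment began 7 days after the cells were injected and tumors were taken 2 weeks later. All arms carry the hairpin, so no tumor with intact Lkb1 was compared here, and Stk11 itself lay between 7.9 and 11.5 FPKM in the 12 tumors. The tumors come from a single cell line.

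In a cycling cell, D-type cyclins with CDK4 or CDK6 begin the phosphorylation of the retinoblastoma protein RB, which otherwise holds E2F factors at the promoters of S phase genes. Freed E2F1, E2F2 and E2F3 activate those genes, among them the E cyclins, and cyclin E with CDK2 phosphorylates RB further, so that the step feeds itself. Cyclin A2 takes CDK2 over during S phase. E2F4 acts mainly as a repressor with the pocket proteins p107 and p130 in resting cells, and E2F7 and E2F8, which bind DNA without a DP partner, switch E2F targets off again late in S phase. Palbociclib blocks the first kinase step, which makes this set the next one down from its target.

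FPKM, the unit of every level below, is the number of fragments assigned to a gene per kilobase of its transcript, scaled to sequencing depth, so levels can be compared between genes. Depth was estimated from the steps between low values at about 14900000 to 20300000 fragments per tumor. On the same estimate Ccne2, the gene with the fewest fragments of the 10, rested on 148 to 395 fragments in a tumor and Ccne1 on 176 to 527, which gives counting errors of 5.03% to 8.21% and 4.35% to 7.53%. E2f4, with the highest level, rested on 2951 to 6918 fragments. These fragment numbers are approximate, because the values of the 10 genes were not whole multiples of 1 fragment at the annotated lengths. Tissue from outside the tumor was unequal between libraries. The 6 skin markers summed to 369 FPKM in palbociclib replicate 2, the 6 adipose markers to 943 in combination replicate 1 and 391 in palbociclib replicate 1, and the 6 skeletal muscle markers to 151 in palbociclib replicate 3 and 146 in combination replicate 2. The muscle markers also summed to 52.0 in vehicle replicate 1 (median of its arm 1.25) and to 9.8 in anti-PD-1 replicate 1 (median of its arm 1.08). Plin1 and Lep, of adipose tissue, and Krt5 and Krt14, of skin, were at 0 in all vehicle and anti-PD-1 tumors. Of the 4 cancer cell markers, Krt8 (62.0 to 276 FPKM) made up most of the sum in every tumor, whereas Epcam, a defining marker of epithelial cells, lay between 0 and 1.81 FPKM.

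Promoter sequence is shown for 4 of the genes, because E2F factors act through the promoters of their own family and of the E cyclins. The letters of a pair of motifs were searched on both strands in the 250 bases before each RefSeq start site (GRCm38.p6). The first is the E2F motif, spelled TTTCGCGC, TTTGGCGC, TTTCCCGC or TTTGCCGC, and the second is the cell cycle genes homology region (CHR), spelled TTTGAA, through which the MuvB complexes bind late cell cycle genes. Windows matched 7 of the 10 genes (9 windows in all), and Ccne2, Ccna2 and E2f4 had none. In the runs below, which hold the 200 bases before the outermost annotated start site and are written 5′ to 3′ in the direction of transcription, capitals mark either motif.

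Ccne1, chr7:38107535-38107734, minus strand: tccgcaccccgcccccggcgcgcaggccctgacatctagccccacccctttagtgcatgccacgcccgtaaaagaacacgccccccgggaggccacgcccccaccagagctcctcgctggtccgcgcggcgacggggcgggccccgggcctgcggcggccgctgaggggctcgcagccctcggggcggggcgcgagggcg
E2f8, chr7:48881597-48881796, minus strand: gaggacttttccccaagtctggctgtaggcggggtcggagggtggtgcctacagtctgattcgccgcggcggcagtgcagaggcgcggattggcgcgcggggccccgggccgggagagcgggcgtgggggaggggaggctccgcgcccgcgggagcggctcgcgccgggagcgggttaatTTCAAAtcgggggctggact
E2f3, chr13:29986064-29986263, minus strand: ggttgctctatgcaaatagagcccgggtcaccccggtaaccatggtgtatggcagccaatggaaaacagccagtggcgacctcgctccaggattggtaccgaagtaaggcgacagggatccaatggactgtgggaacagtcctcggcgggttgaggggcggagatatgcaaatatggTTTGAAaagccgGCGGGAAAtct
E2f7, chr10:110745239-110745438, plus strand: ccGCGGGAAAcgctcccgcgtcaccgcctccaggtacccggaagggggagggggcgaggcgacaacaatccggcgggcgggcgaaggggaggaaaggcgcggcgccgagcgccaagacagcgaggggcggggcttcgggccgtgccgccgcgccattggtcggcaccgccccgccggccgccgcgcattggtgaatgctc

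The E2F letters stood in the windows of 3 genes, always as GCGGGAAA, which is TTTCCCGC read on the other strand. They began 11 bases before the start site of E2f3, 198 before that of E2f7 and 140 before that of Cdk2. Of all 32851 mouse windows of this length, 611 (1.86%) held the motif. In E2f3 a CHR lay just upstream of it, beginning 23 bases before the start site, and E2f8 held a CHR beginning 20 bases before its own. One more CHR lay in the second window of E2f2, which belongs to a start site 8388 bases inside the gene, and 16.0% of all windows held one. The second window of E2f3, at a start site 1672 bases inside the gene, held neither motif. The windows of Ccne1, E2f1, E2f2 and E2f8 held no E2F motif in these spellings. For E2f1 the window lay wholly inside the gene span given below, because its RefSeq start site stands 466 bases into that span. The bases before the outermost start of E2f1 were thus not searched. In the values given next, E2f3, with both motifs, differed least with palbociclib. Ccne1, with neither in its window, differed most, and E2f8, with a CHR, lay between them. Other spellings and bases outside the windows were not searched, and the part of the motifs in these differences was not tested.

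Ccne1, E2f2 and E2f8 were higher in every tumor given palbociclib, alone or with anti-PD-1, than in every other tumor, by 1.36- to 1.58-fold on average, while Cdk2, E2f3 and E2f4 differed by less than 1.1-fold. None of the 10 genes passed an adjusted p-value of 0.05 in any of the 7 comparisons, so these are values and not called changes. To use all 12 tumors at once, palbociclib against vehicle and combination against anti-PD-1 were averaged into a palbociclib effect, given as a log2 difference of FPKM + 0.1. This effect was above 0 for all 10 genes, with a median of 0.29 against 0.055 over all genes tested. Among all genes, 48 passed (0.313%), 38 of them higher and 10 lower (28 and 16 after quantile normalization). At an unadjusted p under 0.05, 6 of the 10 were higher (Ccne1, Ccne2, E2f1, E2f2, E2f7 and E2f8), beside 14.1% of all genes tested. The absence of overlap between the 6 tumors given palbociclib and the 6 others, seen in 3 of the 10 genes, held for 1.02% of all genes. Because the 10 genes were chosen with earlier results of these data known, these shares are descriptions and not a test of the set. In bulk tumors, a larger share of cells expressing a gene and more of its RNA per cell cannot be told apart. The T cell markers moved with the same arms. Summed over 3 such markers, the level was 2.65 to 5.15 FPKM with palbociclib and 1.7 to 5.13 with the combination. It was 0.583 to 2.42 with vehicle and 0.593 to 1.56 with anti-PD-1, and none of the 3 was at 0 throughout an arm. Ptprc, carried by all leukocytes, lay between 2.25 and 3.36 FPKM with palbociclib, between 0.841 and 3.21 with the combination and between 1.19 and 2.11 in the vehicle and anti-PD-1 arms. Their part in the differences of the 10 genes was not tested.

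**Figure D1:**
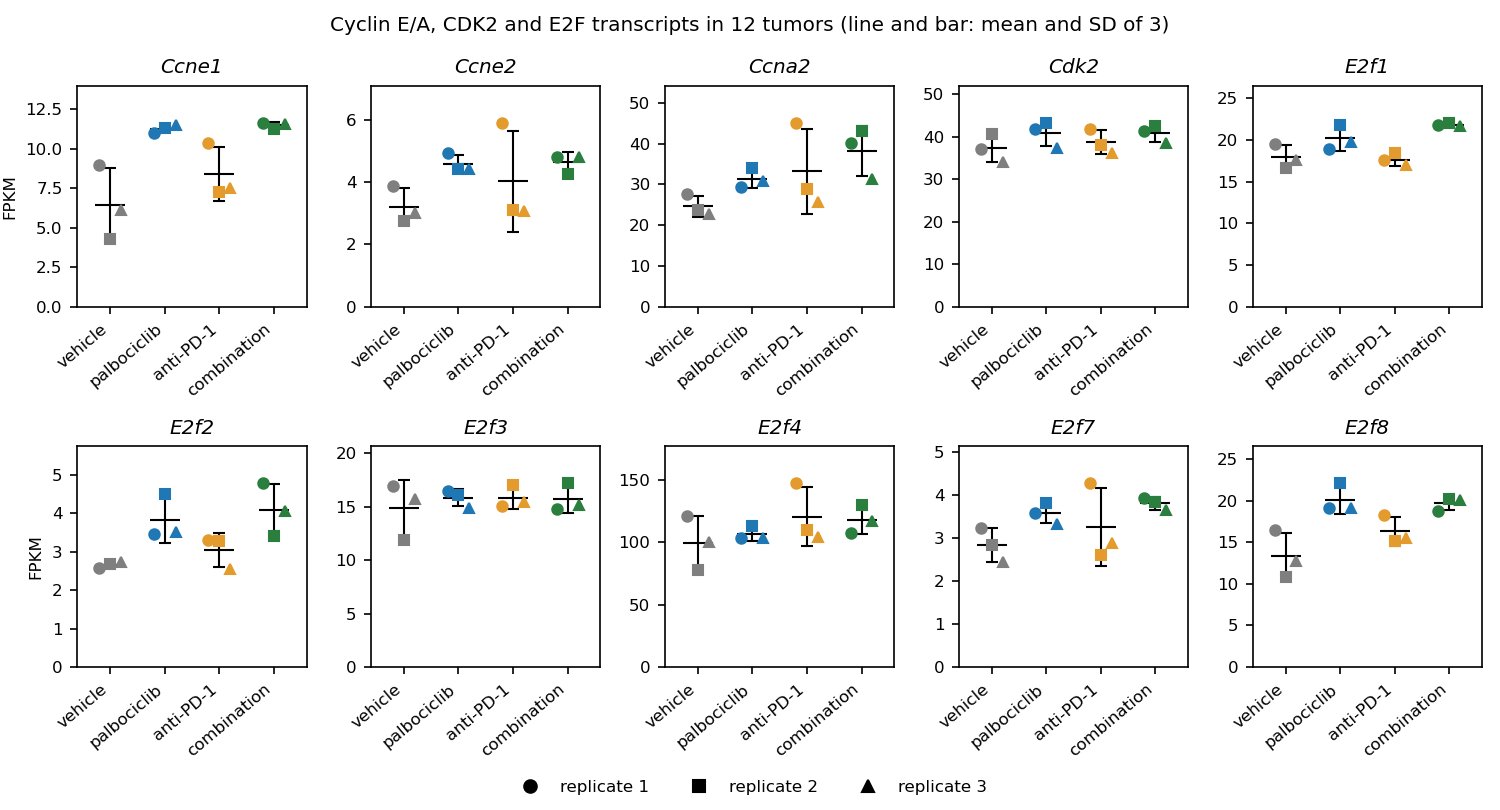
FPKM of each of the 10 genes (y axis, from 0) in the 3 tumors of each arm (x axis), where symbols give the replicate, the horizontal line the mean and the bar the SD. Ccne1 lies between 11.0 and 11.6 in the 6 tumors given palbociclib and between 4.3 and 10.3 in the others. Over all arms Cdk2 lies between 34.2 and 43.3 and E2f3 between 11.8 and 17.2, with overlap of the arms.

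Ccne1 encodes cyclin E1, the activating subunit of CDK2 at entry into S phase, and lies at chr7:38097984-38107534 on the minus strand (GRCm38). Its level was 8.94, 4.30 and 6.09 FPKM in the vehicle tumors and 11.0, 11.3 and 11.5 with palbociclib. It was 10.3, 7.26 and 7.53 with anti-PD-1 and 11.6, 11.2 and 11.6 with the combination. The palbociclib-treated tumors thus held the 6 highest values, and they were also far closer to one another than the rest. The SD was 2.12% of the mean with palbociclib and 1.8% with the combination, less than the counting error, against 36.3% with vehicle and 20.4% with anti-PD-1. The palbociclib effect was 0.66 ± 0.15 on the log2 scale (SE, 1.58-fold, 95% interval 1.25 to 2.0), the largest of the 10 genes, with an adjusted p-value of 0.0828. An exact permutation test of this gene alone, with tumors relabeled within each antibody setting (400 relabelings), gave p = 0.005 (two-sided), the smallest it can give. This test was run on each of the 10 genes and its p-values are not adjusted for their number. For Ccne1, E2f2 and E2f8 the absence of overlap already fixes its p-value at this smallest value, so the test adds nothing to that observation.

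Ccne2 encodes cyclin E2, the second E-type cyclin (chr4:11191351-11204779, plus strand). It stood at a lower level, 3.89, 2.75 and 3.00 FPKM with vehicle, 4.93, 4.41 and 4.43 with palbociclib and 4.82, 4.26 and 4.82 with the combination. Under anti-PD-1 it was 5.91, 3.09 and 3.07. The palbociclib tumors lay above all vehicle tumors, but anti-PD-1 replicate 1 held the highest value of all 12 and so overlapped with the combination. Its palbociclib effect was 0.39 ± 0.16 (SE, 1.31-fold), with an adjusted p-value of 0.208 and an exact permutation p of 0.055. Without anti-PD-1 replicate 1 it was 0.54, with an adjusted p-value of 0.0308.

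Cyclin A2, from Ccna2 (chr3:36564865-36572150, minus strand), pairs with CDK2 through S phase and with CDK1 after it. Its levels were 27.6, 23.7 and 22.7 FPKM with vehicle, 29.5, 34.0 and 30.8 with palbociclib, 45.1, 28.9 and 25.6 in the anti-PD-1 arm and 40.2, 43.2 and 31.3 in the combination arm. All tumors of the palbociclib and combination arms lay above the 3 vehicle tumors. Anti-PD-1 replicate 1 was again the highest tumor, and the palbociclib effect of 0.29 ± 0.14 (SE, 1.22-fold) had an adjusted p-value of 0.255 and an exact permutation p of 0.08. It became 0.41, with an adjusted p-value of 0.0454, without that tumor.

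Cdk2, the kinase itself (chr10:128697939-128705031, minus strand), varied least of the 10 genes. It ranged from 34.2 FPKM in vehicle replicate 3 to 43.3 in palbociclib replicate 2, a ratio of 1.27. The arm means were 37.3 ± 3.27 (SD, n = 3) with vehicle, 40.9 ± 3.11 with palbociclib, 38.7 ± 2.84 in the anti-PD-1 arm and 40.9 ± 2.04 in the combination arm, and all arms overlapped. Its palbociclib effect was 0.11 ± 0.069 (SE), with an adjusted p-value of 0.396 and a 95% interval from -0.046 to 0.26, which spans folds of 0.969 to 1.19.

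E2f1, the founding activator of the family (chr2:154559407-154569892, minus strand), stood at 19.5, 16.6 and 17.7 FPKM with vehicle and 19.0, 21.8 and 19.8 with palbociclib. With anti-PD-1 it was 17.6, 18.4 and 17.0 and with the combination 21.8, 22.1 and 21.7. The combination tumors were almost equal, with an SD of 0.884% of their mean, and lay above all tumors of the vehicle and anti-PD-1 arms, while palbociclib alone overlapped with vehicle through 1 tumor. The palbociclib effect was 0.24 ± 0.061 (SE, 1.18-fold), small but with the smallest SE of the 10 genes. Its adjusted p-value was 0.095 and its exact permutation p was 0.01. Unlike the other 9 genes, its difference was larger with anti-PD-1 (0.31) than without it (0.17), a difference of differences of 0.14 ± 0.12 (SE, adjusted p = 0.931).

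E2f2, a second activator (chr4:136172394-136196057, plus strand), was among the lowest of the set. Its levels were 2.59, 2.69 and 2.72 FPKM with vehicle and 3.47, 4.51 and 3.50 with palbociclib. They were 3.30, 3.28 and 2.54 with anti-PD-1 and 4.79, 3.42 and 4.05 with the combination. The vehicle tumors were nearly the same and every tumor given palbociclib lay above every other tumor, though combination replicate 2 (3.42) lay close to anti-PD-1 replicate 1 (3.30). The palbociclib effect was 0.45 ± 0.11 (SE, 1.37-fold, 95% interval 1.15 to 1.63), with an adjusted p-value of 0.0885 and an exact permutation p of 0.005. It was similar in size without anti-PD-1 (0.50) and with it (0.41).

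E2f3, the remaining activator (chr13:29906575-29986063, minus strand), showed no such separation. Its arm means were 14.8 ± 2.67 FPKM (SD, n = 3) with vehicle, 15.8 ± 0.797 with palbociclib, 15.9 ± 1.05 in the anti-PD-1 arm and 15.7 ± 1.29 in the combination arm. Vehicle replicate 2 lay at 11.8 and every other tumor between 14.8 and 17.2. For E2f3 the palbociclib effect was 0.047, with a 95% interval from -0.15 to 0.25 and an adjusted p-value of 0.791. It turned to -0.029 without vehicle replicate 2 and to -0.0045 after quantile normalization between tumors.

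E2f4, the repressor that works with p107 and p130 (chr8:105297663-105305370, plus strand), was the most abundant of the 10 in every tumor. It ranged from 78.0 to 121 FPKM with vehicle (mean 99.6 ± 21.3, SD, n = 3), was 103, 113 and 104 with palbociclib, 147, 109.8 and 104 in the anti-PD-1 arm and 107, 129 and 117 in the combination arm. Its lowest tumor was vehicle replicate 2 and its highest anti-PD-1 replicate 1, and all 4 arms overlapped. For E2f4 the palbociclib effect was 0.051 (95% interval -0.21 to 0.31, adjusted p = 0.832), -0.031 without vehicle replicate 2 and -0.0072 after quantile normalization.

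E2f7 (chr10:110745439-110787384, plus strand) and E2f8 (chr7:48866429-48881596, minus strand) encode the atypical repressors. E2f7 was low, at 3.24, 2.84 and 2.45 FPKM with vehicle, 3.59, 3.81 and 3.34 with palbociclib, 4.29, 2.61 and 2.89 in the anti-PD-1 arm and 3.94, 3.85 and 3.65 in the combination arm. Both arms given palbociclib lay above all vehicle tumors, and anti-PD-1 replicate 1 was once more the highest of the 12. The palbociclib effect of E2f7 was 0.29 ± 0.12 (SE, 1.22-fold), with an adjusted p-value of 0.219 and an exact permutation p of 0.045.

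E2f8 stood higher, at 16.4, 10.9 and 12.7 FPKM with vehicle and 19.2, 22.1 and 19.2 with palbociclib. It was 18.3, 15.2 and 15.5 in the anti-PD-1 arm and 18.8, 20.3 and 20.1 in the combination arm. The 6 tumors given palbociclib were the 6 highest, although combination replicate 1 (18.8) and anti-PD-1 replicate 1 (18.3) lay close together. The palbociclib effect of E2f8 was 0.44 ± 0.099 (SE, 1.36-fold, 95% interval 1.17 to 1.58). Its adjusted p-value of 0.0804 was the lowest of the 10 genes, and its exact permutation p was 0.005. So the atypical repressor E2f8 was higher alongside the activator E2f2 and cyclin E1, by differences whose 95% intervals overlap.

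**Figure D2:**
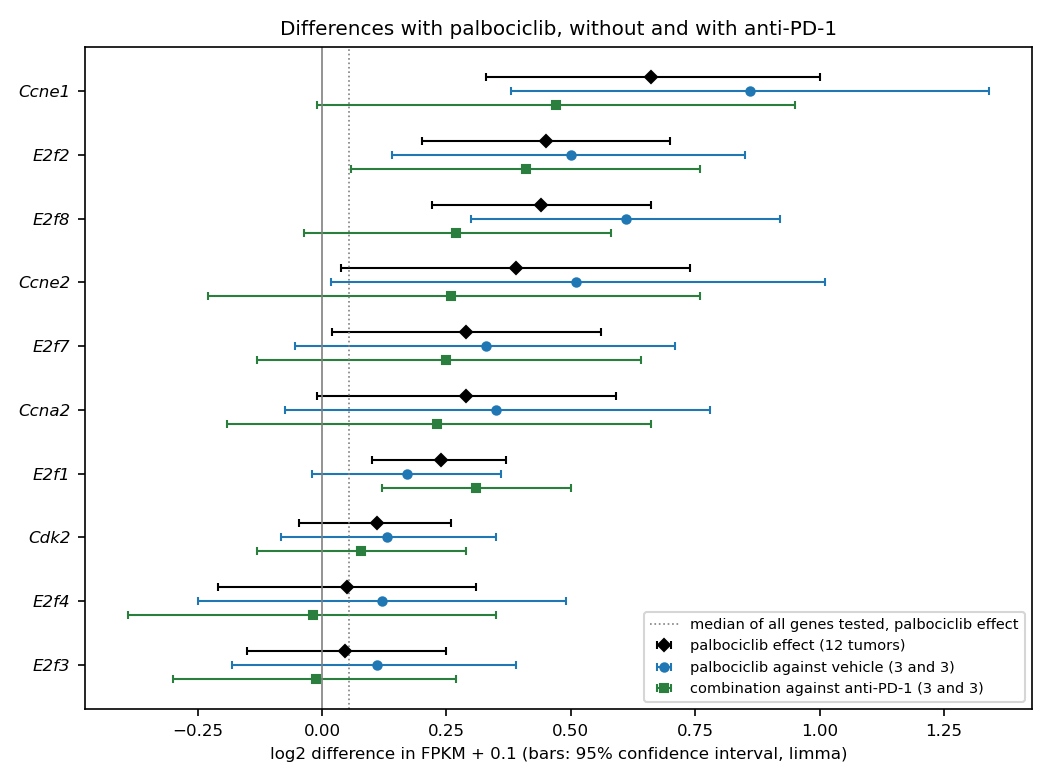
Log2 differences in FPKM + 0.1 (x axis) for the 10 genes (y axis), with 95% confidence intervals from limma, for the palbociclib effect over 12 tumors and for each of its 2 parts. The palbociclib effect runs from 0.66 for Ccne1 to 0.047 for E2f3, and the interval of the difference with anti-PD-1 reaches 0 or below for all but E2f1 and E2f2.

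The effect of palbociclib could be read separately without and with anti-PD-1. Palbociclib against vehicle gave differences from 0.11 to 0.86, above 0 for all 10 genes, with adjusted p-values from 0.129 (E2f8) to 0.742 (E2f4). The difference was 0.86 ± 0.22 (SE) for Ccne1, 0.61 ± 0.14 for E2f8, 0.51 ± 0.23 for Ccne2 and 0.50 ± 0.16 for E2f2. These were the 4 of 10 genes that were higher at an unadjusted p under 0.05, as were 9.43% of all genes, while 0.143% of all genes passed after adjustment. In 6 of the 10 the palbociclib tumors all lay above the vehicle tumors, beside 12.9% of all genes. The exceptions were Cdk2, E2f1, E2f3 and E2f4.

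Combination against anti-PD-1 gave smaller differences for 9 of the 10 genes. Ccne1 differed by 0.47 ± 0.22 (SE), E2f2 by 0.41 ± 0.16, E2f1 by 0.31 ± 0.087 and E2f8 by 0.27 ± 0.14, and E2f3 and E2f4 were at -0.012 and -0.019. Adjusted p-values ran from 0.327 to 0.98, and 0.00651% of all genes passed. E2f1 and E2f2 were higher at an unadjusted p under 0.05, 2 of 10 beside 7.61% of all genes, and in 4 of 10 (Ccne1, E2f1, E2f2 and E2f8) the combination tumors all lay above the anti-PD-1 tumors, beside 11.4% of all genes. Anti-PD-1 replicate 1 was the highest of its arm for 8 of the 10 genes, as vehicle replicate 1 was of its own, and without the anti-PD-1 tumor the difference went from 0.26 to 0.57 for Ccne2, from 0.23 to 0.48 for Ccna2 and from 0.25 to 0.46 for E2f7.

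The interaction, the difference with anti-PD-1 minus the difference without it, was below 0 for 9 of the 10 genes. It was -0.39 for Ccne1 (95% interval -1.07 to 0.29) and -0.34 for E2f8 (-0.77 to 0.10). Adjusted p-values ran from 0.887 to 0.984 and 0.0% of all genes passed, 0 by limma at the adjusted threshold and 879 at an unadjusted p under 0.05. The intervals are wide, so neither equal nor unequal effects of palbociclib without and with the antibody can be read from these 12 tumors. Without anti-PD-1 replicate 1 the interaction of Ccna2, Ccne2 and E2f7 turned to 0.13, 0.056 and 0.13.

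Anti-PD-1 alone against vehicle left no gene past the threshold, neither among the 10 nor among all genes (0.0%, with 1289 at an unadjusted p under 0.05). Of the 10, 9 had differences above 0, with a median of 0.22 against -0.033 over all genes. Ccne1 was at 0.42 ± 0.22 (SE), Ccna2 at 0.39 ± 0.19 and E2f8 at 0.31 ± 0.14, with adjusted p-values of 0.595 to 0.625, and E2f1 was at -0.021. All arms overlapped in each of the 10 genes in this comparison.

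Combination against vehicle gave the largest median difference of the 7 comparisons, 0.47 against 0.03 over all genes. Ccne1 was higher by 0.89 ± 0.22 (SE, 1.85-fold), Ccna2 by 0.62 ± 0.19 (1.54-fold), E2f2 and E2f8 by 0.58 each and Ccne2 by 0.53 ± 0.23. E2f7 was higher by 0.42 and E2f1 by 0.29. For these 7 of the 10 genes the unadjusted p was under 0.05, as it was for 8.64% of all genes in that direction, and for the same 7 every combination tumor lay above every vehicle tumor, beside 10.8% of all genes. Adjusted p-values were 0.184 or more, and 0.013% of all genes passed. The combination against palbociclib alone differed little, by -0.029 to 0.27, with adjusted p-values of 1.0 for all 10 and 0.00651% of all genes called. Ccna2, the highest there, was 38.2 ± 6.20 FPKM (SD, n = 3) with the combination and 31.4 ± 2.35 with palbociclib, and the arms overlapped. These comparisons share their vehicle or palbociclib tumors and are not independent of one another.

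**Figure D3:**
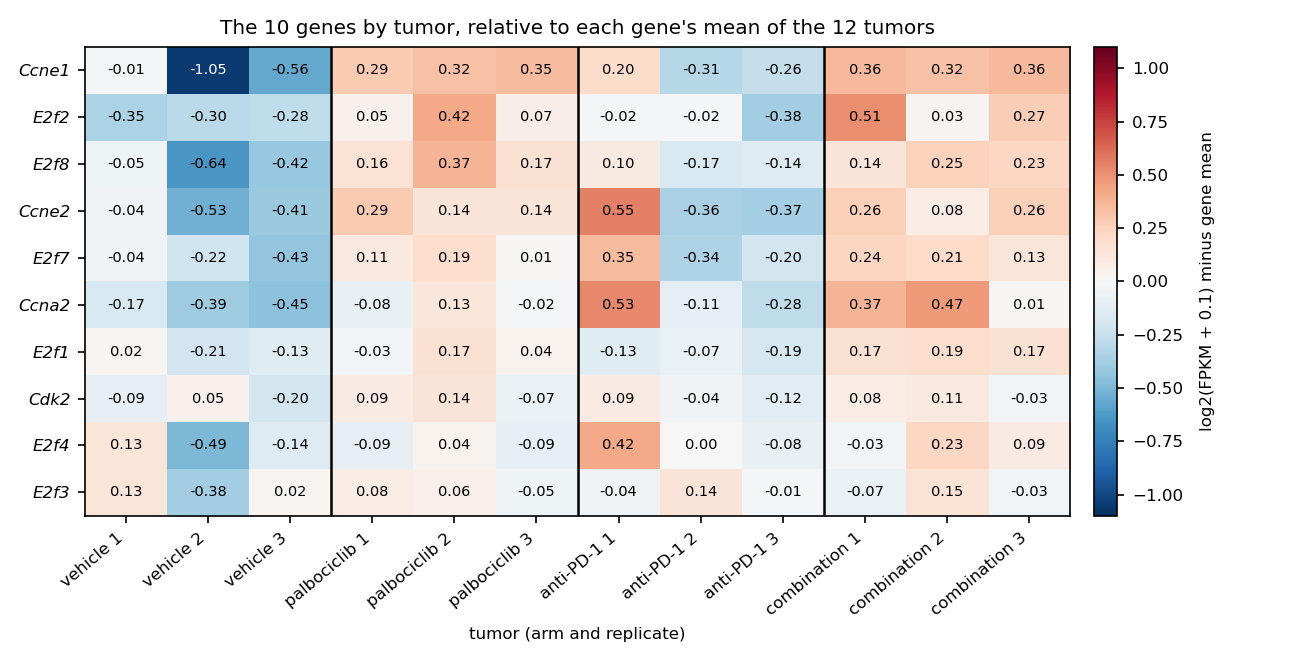
Each cell gives log2(FPKM + 0.1) of 1 gene (rows) in 1 tumor (columns, by arm and replicate) minus that gene's mean over the 12 tumors, with the value printed and coloured from blue (below) to red (above). Vehicle replicates 2 and 3 are below the mean for most genes, and anti-PD-1 replicate 1 resembles the tumors given palbociclib in Ccne2, E2f7 and Ccna2 but not in E2f1 or E2f2.

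Seen tumor by tumor, the genes did not move independently. All 10 were above their own mean in palbociclib replicate 2 and in combination replicate 2, and none was in anti-PD-1 replicate 3. Vehicle replicate 2 was the lowest of all tumors for 6 genes (Ccne1, Ccne2, E2f1, E2f3, E2f4 and E2f8) and vehicle replicate 3 for 3 more. Anti-PD-1 replicate 1 was the highest of all tumors for 4 (Ccne2, Ccna2, E2f4 and E2f7), yet its E2f1, at 17.6 FPKM, was below that of every tumor given palbociclib. This tumor also had the highest sum of the cancer cell markers, 281 FPKM against 122 to 130 in the other anti-PD-1 tumors, nearly all of it Krt8. The sums were 84.3 to 153 with vehicle, where replicate 2 was the highest, 108 to 148 with palbociclib and 72.8 to 97.9 with the combination. The marker sums and the levels of the 10 genes thus did not rise together in every arm. The part of the marker sums in the level of the cyclins was not tested. The median SD over the 10 genes was 6.88% of the mean with palbociclib and 5.99% with the combination, against 16.0% with vehicle and 16.9% with anti-PD-1. E2f2 went the other way, with 15.5% and 16.8% against 2.65% and 14.3%, and Ccna2 was at 16.2% with the combination against 10.5% with vehicle.

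Across the 12 tumors, as a description, the Pearson correlations of log2 values among Ccne1, Ccne2, Ccna2, E2f1, E2f2, E2f7 and E2f8 ran from 0.557 to 0.974, with a median of 0.779 over 21 pairs. Ccne1 and E2f8 were the closest pair at 0.974, followed by Ccne2 and E2f7 at 0.917. The 24 pairs that include Cdk2, E2f3 or E2f4 had a median of 0.517, and Cdk2 with E2f3 stood at -0.0605. Cdk2, E2f3 and E2f4 were set apart because they had the smallest palbociclib effects, and arm means were not removed. Genes grouped by a shared difference between arms correlate in part through that choice, so the medians are not evidence of a common regulation. The tumors share arms and libraries, so these are not independent observations.

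In order of mean level, E2f4 (111 FPKM) was followed by Cdk2 (39.4), Ccna2 (31.9), E2f1 (19.4), E2f8 (17.4), E2f3 (15.6), Ccne1 (9.39), Ccne2 (4.12), E2f2 (3.41) and E2f7 (3.37). The order held in all 12 tumors for E2f4 over Cdk2, Ccna2 over E2f1, E2f3 over Ccne1 and Ccne1 over Ccne2. Cdk2 was above Ccna2 in 10 tumors, E2f1 above E2f8 in 9 and E2f8 above E2f3 in 8. E2f2 and E2f7, each above the other in 6 tumors, cannot be ordered. E2f3 was above E2f8 in the mean of the vehicle tumors (14.8 against 13.3) and below it in the other arms (15.8 against 20.2 with palbociclib, 15.9 against 16.3 with anti-PD-1 and 15.7 against 19.7 with the combination).

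**Figure D4:**
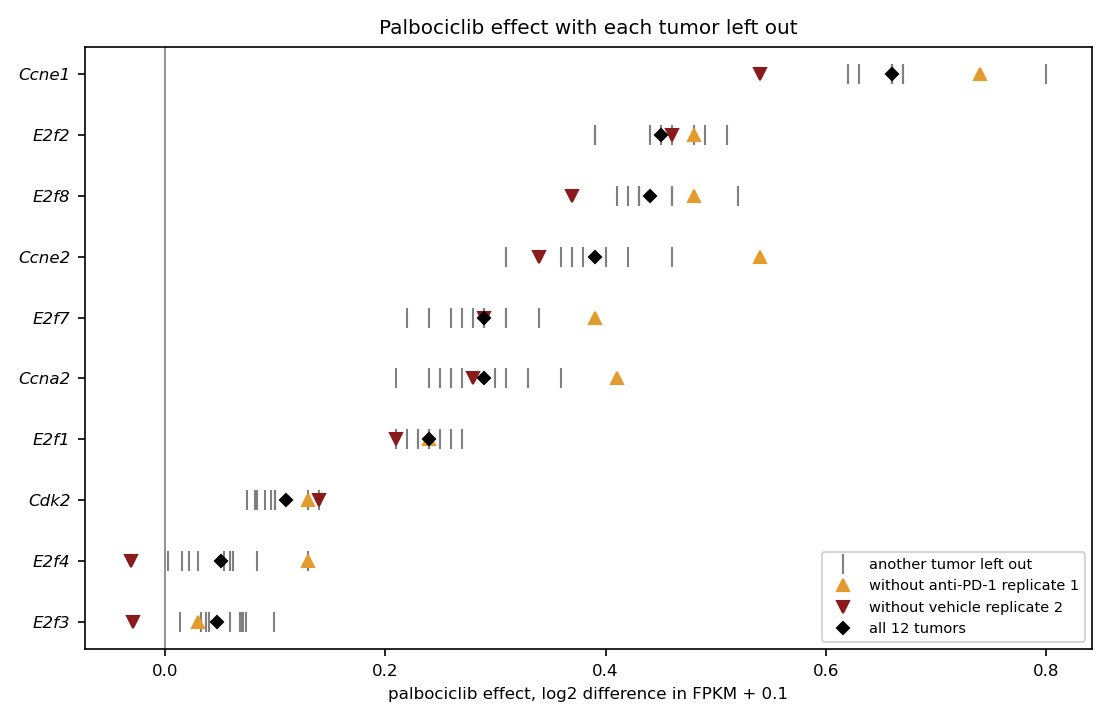
Palbociclib effect (x axis, log2 difference in FPKM + 0.1) of the 10 genes (y axis) over all 12 tumors and with each tumor left out in turn. Leaving out anti-PD-1 replicate 1 moves Ccne2 from 0.39 to 0.54 and Ccna2 from 0.29 to 0.41, and leaving out vehicle replicate 2 lowers Ccne1 to 0.54 and takes E2f3 and E2f4 below 0.

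A single tumor decided how many of the 10 passed. Without anti-PD-1 replicate 1 the palbociclib effect passed for 6 of them, Ccna2, Ccne1, Ccne2, E2f2, E2f7 and E2f8, with adjusted p-values of 0.0308 to 0.0492 (758 genes passed in all). Without vehicle replicate 1 it passed for 3, Ccne1 (0.80), E2f1 (0.27) and E2f8 (0.52), with adjusted p-values of 0.0262, 0.0415 and 0.0276 (692 genes in all). Leaving out any of the other 10 tumors left 0 of the 10 past the threshold. The genes whose tumors did not overlap, a number that leaving out a tumor can only raise, went from 3 to 6 without anti-PD-1 replicate 1 (3.45% of all genes) and to 4 without vehicle replicate 1 (2.44%) or palbociclib replicate 1 (1.96%). Genes higher at an unadjusted p under 0.05 numbered 4 to 7 of the 10, with Ccne1, E2f1, E2f2 and E2f8 always among them, beside 10.2% to 18.5% of all genes.

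The rest of the pathway was described through 5 lists, none of which had a gene past the threshold in any comparison. Upstream, the D cyclins, CDK4, CDK6 and the pocket proteins had palbociclib effects above 0 in 6 of 8, with a median of 0.20. Ccnd1, the D cyclin with the highest level here, was higher by 0.52 ± 0.15 (SE, adjusted p = 0.112) and Cdk4, a direct target of the drug, by 0.066 ± 0.081. The 4 remaining E2F and DP factors had a median of 0.068, with 2 above 0. Tfdp1, the DNA-binding partner of the E2F activators, was at 0.15 ± 0.13 and E2f6, a repressor that acts without RB, at 0.23 ± 0.12. The 10 regulators of CDK2 had a median of 0.057, with 7 above 0. Among them Cks1b, a small subunit bound to the kinase, was at 0.35 ± 0.086 (adjusted p = 0.0876) and Cdkn1a, its inhibitor p21, at -0.15 ± 0.14.

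Downstream, all 20 S phase targets of E2F had palbociclib effects above 0, with a median of 0.23 against 0.055 over all genes, and 8 of them were higher at an unadjusted p under 0.05, beside 14.1% of all genes. Rrm2, a subunit of ribonucleotide reductase, was at 0.40 ± 0.085 (SE, adjusted p = 0.0736) and Mcm5, of the replicative helicase, at 0.20 ± 0.096. All 15 mitotic genes were above 0 as well, with a median of 0.37 and 9 at an unadjusted p under 0.05. Top2a, the topoisomerase of mitotic chromosomes, was at 0.24 ± 0.089 and Cdc20, an activator of the anaphase-promoting complex, at 0.40 ± 0.17. In the combination against vehicle the medians were 0.46 and 0.45, close to the 0.47 of the 10 genes, and 19 of 20 and 12 of 15 were higher at an unadjusted p under 0.05, beside 8.64% of all genes. With anti-PD-1 alone against vehicle, all 20 and all 15 were above 0 too, with medians of 0.25 and 0.21 against -0.033 over all genes. Values above 0 were thus not particular to palbociclib. In the combination against anti-PD-1, 16 of 20 and 15 of 15 were above 0, with medians of 0.15 and 0.26 against 0.049 over all genes. These lists were drawn up with results of these tumors known and were not tested as sets.

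**Figure D5:**
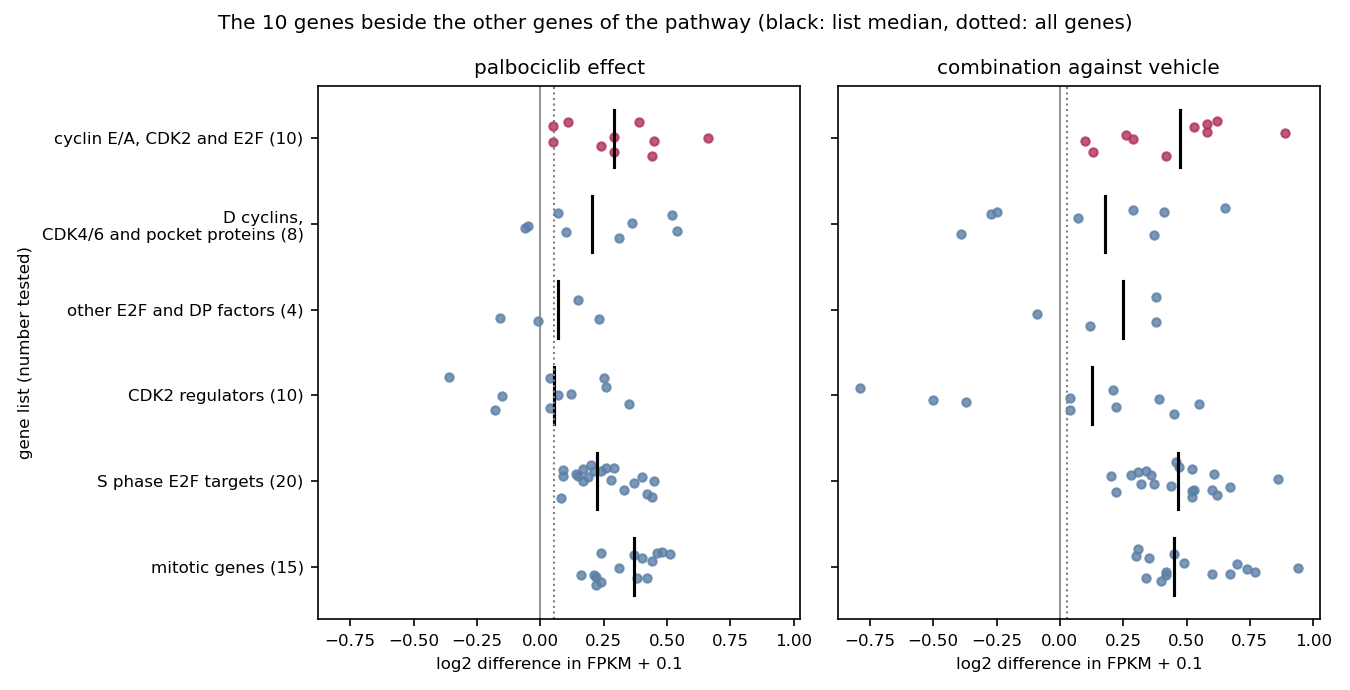
Log2 differences in FPKM + 0.1 (x axes) of the 10 genes and of 5 lists of other pathway genes (y axis, number tested in brackets), for the palbociclib effect and for the combination against vehicle, with a black line at each list's median and a dotted line at the median of all genes. S phase and mitotic genes lie wholly above 0 in both panels, whereas CDK2 regulators spread to both sides.

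The genes whose pattern over the 12 tumors was closest to each of the 10 were sought by Pearson correlation among 11177 genes with a mean of at least 1 FPKM. The values are descriptions, because the best of many genes is high by choice. Ccne1 was closest to Rad54l (0.972), a recombination factor, and Fbxo5 (0.971), the inhibitor EMI1 of the anaphase-promoting complex. Ccne2 was closest to Mfsd1 (0.981) and Cep128 (0.974). Ccna2 was closest to Hmgb2 (0.949), a chromatin protein, and Ckap2 (0.932), a spindle protein, and E2f7 to Shcbp1 (0.974) and Gm7879 (0.957). The nearest genes of the others were Crybg3 and Rnaseh2a, a subunit of ribonuclease H2, for Cdk2 (0.913 and 0.912), Cisd2 and Qpctl for E2f1 (0.949 and 0.939) and Slc25a46 and Prl2c3 for E2f2 (0.93 and 0.891). They were Bend3 and Wdr82 for E2f3 (0.911 and 0.908), Pmpca and Eif3j1 for E2f4 (0.954 and 0.944) and Tmem238 and Nudt19 for E2f8 (0.955 and 0.954). No gene was named for more than 1 of the 10.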

How the data were processed

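RNA was extracted by the authors from 12 tumors, 3 in each of 4 arms, and sequenced on an Illumina platform. FPKM values per gene symbol were made and deposited by the authors (34745 entries per tumor). The submitters' processing notes name HISAT2 and the builds GRCm38 and mm10, while the HISAT2 version, the counting tool and the gene annotation are not given in the sources used here. FPKM keeps no fragment counts, so no count model was run, and FPKM of a gene with several isoforms depends on the authors' length model.

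Of 67 repeated entries the one with the highest mean was kept. A mean FPKM of 0.1 was required, which left 15350 genes. Their log2(FPKM + 0.1), a scale that understates differences of low genes, was fitted by arm in R 4.3.3 using limma 3.58.1 (lmFit and contrasts.fit, then eBayes with a trend) and no further covariate. P-values were adjusted by Benjamini-Hochberg over the genes tested (threshold 0.05). The fit was tested on simulated data. Single genes were also compared by exact permutation tests (400 relabelings). The p-values of limma set a difference against the spread between tumors within arms. That spread was pooled over the 4 arms and adjusted by eBayes towards that of genes of similar level. The permutation p-values rest on the relabeling of tumors alone. Fragment numbers per tumor were estimated from the lowest FPKM steps and exon lengths of GENCODE M21 (GRCm38), which also gives positions, and intervals of this kind cover counting error only. Promoter windows are from RefSeq (GRCm38.p6). Summaries and figures used Python 3.11.15, numpy 2.4.6, pandas 2.3.3 and matplotlib 3.10.9.

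The 10 genes and all lists were chosen with earlier results of these data known. Named beside them are, for each pathway list, the 2 genes with the highest mean FPKM (where fewer than 2 passed), and for each of the 10 genes the 2 most correlated genes. Alternatives were pseudocounts of 1 and 0.01, a filter at a mean FPKM of 1 or none, TPM, quantile normalization, eBayes without a trend, a replicate block, fits of only the arms compared and leaving out each tumor. Counts of non-overlapping genes without each tumor were added after seeing the data.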

Additional observations from a re-analysis of the deposited data

How the results depend on the processing

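The number of the 10 genes past the threshold stayed at 0 in all 7 comparisons with pseudocounts of 1 and 0.01, a filter at a mean FPKM of 1, no filter, TPM, quantile normalization, eBayes without a trend, a replicate block and, between pairs of arms, fits of only the arms compared. With each tumor left out in turn it ran from 0 to 6 in the palbociclib effect and was 0 in the other 6 comparisons. Same-numbered tumors of different arms had correlations of -0.21 to 0.45 in their deviations from the arm means (median 0.028, 7 of 18 pairs over 0.1). Other pairs of different arms had correlations of -0.35 to 0.31 (median -0.013, 9 of 36 over 0.1). Both medians were small, so the replicate numbers were not taken as pairs, but a weak pairing cannot be told from none here. The replicate block left 0 of the 10 past the threshold and raised the genes called in all from 48 to 129 in the palbociclib effect and from 22 to 51 in palbociclib against vehicle. The 48 genes became 11 without a filter, 0 with eBayes without a trend, and 0 to 758 with a tumor left out, and the 22 became 0 in a fit of only the arms compared, 1 after quantile normalization, 6 with eBayes without a trend, 34 with TPM and 1 to 46 with a tumor left out. After quantile normalization the palbociclib effect was -0.0045 for E2f3 and -0.0072 for E2f4. With a tumor left out it ran from -0.029 to 0.099 for E2f3 and from -0.031 to 0.13 for E2f4. Palbociclib against vehicle ran from -0.046 to 0.21 for E2f3 and from -0.043 to 0.27 for E2f4, and combination against anti-PD-1 from -0.078 to 0.041 and from -0.11 to 0.14. The interaction ran from -0.40 to 0.056 for Ccne2, -0.28 to 0.13 for Ccna2, -0.12 to 0.009 for Cdk2, -0.20 to 0.037 for E2f2, -0.22 to 0.034 for E2f3, -0.29 to 0.024 for E2f4 and -0.22 to 0.13 for E2f7. The cause was not tested. Quantile normalization moved the median of all genes by up to -0.099 (palbociclib against vehicle, from 0.068 to -0.032; palbociclib effect, from 0.055 to -0.027), and TPM by up to -0.056. With 3 tumors per arm, differences as small as those of Cdk2, E2f3 and E2f4 could not be told from 0, and none of the 10 genes passed the threshold with all 12 tumors.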
